A study of Mus musculus with 8 samples.

Results

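Retinal progenitor factors are the transcription factors and secreted proteins that keep cells of the developing retina dividing and able to make every retinal cell type. The genes described here are Pax6, Rax, Lhx2, Six3, Six6, Sox2 and Nr2e1, which encode transcription factors, and Fgf15 and Sfrp2, which encode secreted proteins. They were chosen as the rows of the deposited count table that carry these symbols, and all 9 were found among 16109 genes. All 9 also passed edgeR's filter on low counts and were tested, among 15850 tested genes. The libraries were poly(A) RNA of C57BL/6 mouse retinas taken at postnatal day 5 after removal of the hyaloid vessels, 4 labelled WT (wild type) and 4 labelled C3 KO. The gene C3 encodes the complement component on which all activation routes converge, and the series compares the transcriptomes of both genotypes during retinal vascular development. The labels name no other allele or agent, and they do not say how many animals or which litter stand behind a library, so p-values measure the spread between these libraries, which may be technical.

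Early in eye development the transcription factors of this group define the eye field. Pax6, Rax, Lhx2, Six3 and Six6 act as a mutually reinforcing network there, and Sox2 maintains the neural competence of the progenitors. At the first postnatal days the mouse retina still holds dividing late progenitors, mostly making rods, bipolar cells and Mueller glia, while amacrine and ganglion cells are already born. Several of these genes stay on after birth of the neurons. Pax6 persists in amacrine, ganglion and horizontal cells, Six3 and Six6 in amacrine and ganglion cells, Sox2 in Mueller glia and some amacrine cells, Lhx2 in Mueller glia and Rax in photoreceptors and Mueller glia.

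Each library held between 16503564 and 19608824 counted reads. No pair of libraries within a label agreed within sampling noise (chi-square per degree of freedom of at least 3.72). C3 itself went against the labels. It stood at 2.67, 2.62, 1.75 and 3.32 CPM (a gene's reads relative to the scaled library total) under the WT label and at 87.5, 82.5, 87.5 and 80.6 CPM under the C3 KO label. Gene counts do not tell which exons carry the reads, so an exchange of the labels and RNA from a disrupted allele cannot be told apart. Every direction below is therefore that of the library labels. Summed CPM of 4 Y-linked genes were 299 to 353 in the libraries labelled C3 KO and 1.79 to 303 in those labelled WT, where replicate 3 was the high one, so the Y-linked level moved with the label. Their mean log2 level, relative to the WT mean, was −3.33, −0.06, 3.83 and −0.45 for WT replicates 1 to 4. Replicates 2 and 4 thus lay between replicates 1 and 3, and the reason was not tested. All 15 tested genes of pigment epithelium and melanocytes had positive log2 fold changes, and their summed level was 286 to 313 CPM under the C3 KO label against 101 to 156 CPM under the WT label. Markers of the labelled tissue were present in both groups, with summed photoreceptor markers at 11131 to 12775 CPM under the WT label and 9659 to 11482 CPM under the C3 KO label.

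The following 3 upstream sequences give the genomic setting of a member that rose, one that fell and one that did not pass. Each runs from base 250 to base 11 before the RefSeq transcript start on GRCm38.p6, plus strand, and entries of 7 of the 9 genes were read. Capitals mark the motifs found among 4 that were searched on both strands: TAATTA, a homeodomain core that LIM and paired-like factors bind, ACAAAG, a SOX core, TGGGAA, a core bound by the Notch effector RBPJ, and TATAAA. The motifs do not overlap one another in these windows.
Pax6, chr2:105668646-105668885: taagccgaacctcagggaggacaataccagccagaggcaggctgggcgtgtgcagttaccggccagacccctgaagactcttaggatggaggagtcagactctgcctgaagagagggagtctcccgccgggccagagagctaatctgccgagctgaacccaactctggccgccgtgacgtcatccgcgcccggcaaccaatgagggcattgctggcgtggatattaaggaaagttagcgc
Lhx2, chr2:38339031-38339270: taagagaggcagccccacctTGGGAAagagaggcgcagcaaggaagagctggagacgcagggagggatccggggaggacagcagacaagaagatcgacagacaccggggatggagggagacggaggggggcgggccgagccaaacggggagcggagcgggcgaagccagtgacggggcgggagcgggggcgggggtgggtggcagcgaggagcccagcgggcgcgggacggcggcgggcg
Sox2, chr3:34649745-34649984: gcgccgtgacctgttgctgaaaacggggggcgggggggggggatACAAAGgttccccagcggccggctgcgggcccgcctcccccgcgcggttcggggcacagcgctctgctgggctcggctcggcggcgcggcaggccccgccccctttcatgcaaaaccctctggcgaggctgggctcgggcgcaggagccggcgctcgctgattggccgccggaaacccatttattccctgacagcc

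The Lhx2 window held 1 TGGGAA and the Sox2 window 1 ACAAAG, while the Pax6 window shown held none of the 4 motifs. A second RefSeq promoter of Pax6, at chr2:105682213-105682452, held 1 ACAAAG, and a second one of Lhx2 held none. Among 32851 RefSeq promoter windows of the same length, 20.8% held TGGGAA, 15.96% held ACAAAG, 12.1% held TATAAA and 4.77% held TAATTA. The share of G and C in the 3 windows shown was 60.0% for Pax6, 72.1% for Lhx2 and 72.9% for Sox2, against a median of 52.1% over all windows, and 47.5% in the second Pax6 window. No assay of binding or chromatin was made in this series, so a match describes letters only.

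Of the 9 factors, 1 rose and 4 fell in the libraries labelled C3 KO, with a median log2 fold change of −0.36 against 0.0044 over all tested genes. Across the transcriptome 14.3% of genes were called, 8.33% as higher and 5.98% as lower, at an edgeR quasi-likelihood adjusted p (Benjamini-Hochberg over all tested genes) below 0.05. Pax6 was the one that rose, and Rax, Lhx2, Fgf15 and Sfrp2 fell. For the same 5 genes the libraries of both labels did not overlap, which held for 17.4% of all tested genes. Sox2 and Nr2e1 had negative log2 fold changes that did not pass, and those of Six3 and Six6 were near 0. In whole retina, fewer cells of a type and less RNA per cell cannot be told apart.

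**Figure D1:**
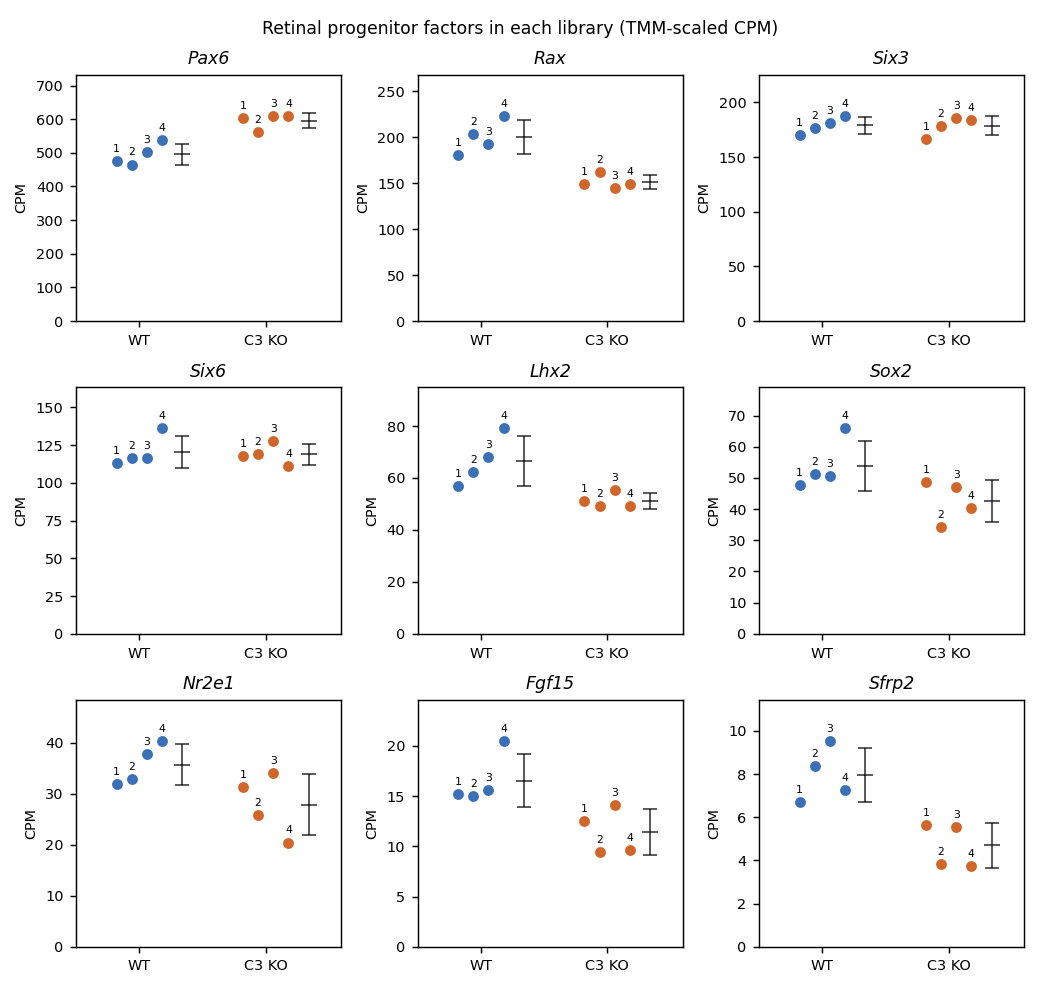
Level of each progenitor factor in each library, in TMM-scaled CPM on axes that start at 0. Each point is a library with its replicate number, blue for the WT label and orange for the C3 KO label, and the bar to the right of each group is the mean with its SD (n = 4). Pax6 lies between 562 and 611 CPM under the C3 KO label, above every library labelled WT, while Rax lies between 145 and 162 CPM, below every library labelled WT.

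Pax6, a paired-domain and homeodomain factor needed for progenitors to keep their full range of fates, was the most abundant of the group by reads. Replicates 1 to 4 with the WT label had 475, 465, 501 and 538 CPM, and replicates 1 to 4 with the C3 KO label had 603, 562, 611 and 608 CPM. The lowest library labelled C3 KO, replicate 2, was above the highest labelled WT, replicate 4. Pax6 thus rose from 495 ± 32.6 to 596 ± 22.7 CPM (SD, n = 4). The log2 difference was 0.27 ± 0.05 (SE) at an edgeR adjusted p = 0.00118. The value was between 0.23 and 0.30 when any 1 library was left out, and the call held in all 8 such fits. With the Y-linked level as a covariate it was 0.24 and no longer passed (edgeR adjusted p = 0.108).

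Rax, a homeodomain factor without which no eye forms and which is later used by photoreceptors, fell. Its levels were 180, 203, 193 and 224 CPM under the WT label and 149, 162, 145 and 149 CPM under the C3 KO label. Every library labelled C3 KO lay below every library labelled WT. The mean went from 199.98 ± 18.3 to 151 ± 7.20 CPM (SD, n = 4). The log2 difference was −0.40 ± 0.06 (SE), whose edgeR adjusted p = 6.52e-05 was the smallest of the 9. The call held under all 20 other settings, with log2 fold changes from −0.45 to −0.26. In the GRCm38 annotation the antisense gene Raxos1 covers 27.4% of Rax exon bases, and Raxos1, named after its values were seen, was counted at 1.74 CPM with the WT label and 2.16 CPM with the C3 KO label.

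Lhx2, a LIM-homeodomain factor required for the optic vesicle and later for progenitor maintenance and Mueller glia, also fell. It was measured at 56.8, 62.3, 68.0 and 79.1 CPM under the WT label and at 51.2, 49.0, 55.5 and 49.3 CPM under the C3 KO label. The groups did not overlap, although C3 KO replicate 3 came close to WT replicate 1. Its log2 fold change was −0.38 ± 0.08 (SE, edgeR adjusted p = 0.00432) and ran from −0.45 to −0.29 without any 1 library. It lost the call with 1 surrogate variable as a covariate (log2 fold change −0.29, edgeR adjusted p = 0.172).

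Both secreted factors fell further on the log2 scale than the transcription factors did. Fgf15, the mouse counterpart of human FGF19 and a progenitor-expressed growth factor, stood at 15.2, 15.02, 15.6 and 20.5 CPM under the WT label. Under the C3 KO label it stood at 12.5, 9.42, 14.2 and 9.60 CPM, below all libraries labelled WT. The mean fell from 16.6 ± 2.61 to 11.4 ± 2.31 CPM (SD, n = 4), which is −0.53 ± 0.13 (SE) in log2 terms (edgeR adjusted p = 0.0107). This call held in all 8 fits without 1 library (edgeR adjusted p up to 0.0435), and was lost with the Y-linked covariate (0.164) and with 1 surrogate variable (0.157).

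Sfrp2, a secreted Frizzled-related protein that binds Wnt ligands, was the least abundant of the group. It was found at 6.71, 8.38, 9.52 and 7.24 CPM under the WT label, from 120 to 179 reads, and at 5.65, 3.85, 5.53 and 3.75 CPM under the C3 KO label, from 66 to 111 reads. No library labelled C3 KO reached the lowest library labelled WT. The log2 fold change was −0.76 ± 0.17 (SE, edgeR adjusted p = 0.00338), a 1.69-fold lower level. It was −1.03 with the Y-linked covariate and still called (edgeR adjusted p = 0.0127), and −0.73 with 1 surrogate variable, where the call was lost (0.0713). Whether the log2 changes of Fgf15 and Sfrp2 differ from those of Rax and Lhx2 was not tested.

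Sox2, the SOX-family factor that maintains neural progenitors, had a negative log2 fold change that did not pass. Its levels were 47.9, 51.2, 50.7 and 65.8 CPM under the WT label and 48.8, 34.1, 46.9 and 40.4 CPM under the C3 KO label. The groups overlapped, since C3 KO replicate 1 was above WT replicate 1. The log2 fold change was −0.34 ± 0.12 (SE), with a 95% interval of −0.61 to −0.07, an unadjusted p = 0.0176 and an edgeR adjusted p = 0.0908. DESeq2 (adjusted p = 0.0165), limma-voom (0.0350) and edgeR without robust dispersion (0.0337) called it lower, whereas 7 of the 8 fits without 1 library did not.

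Nr2e1, an orphan nuclear receptor also known as Tlx that keeps neural progenitors in cycle, had a difference of similar size. It stood at 31.9, 33.0, 37.8 and 40.3 CPM under the WT label and at 31.4, 25.8, 34.02 and 20.5 CPM under the C3 KO label. C3 KO replicate 3 lay within the range of the libraries labelled WT, and C3 KO replicate 4 was far below it. The log2 fold change was −0.36 ± 0.14 (SE), with a 95% interval of −0.65 to −0.06 and an edgeR adjusted p = 0.104. It passed by DESeq2 (adjusted p = 0.0288), by limma-voom (0.0415) and without robust dispersion (0.0492). Leaving out C3 KO replicate 4 took it to −0.24, and leaving out C3 KO replicate 3 took it to −0.47 with an edgeR adjusted p = 0.0238.

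The paralogs Six3 and Six6, sine oculis homeodomain factors, gave the narrowest differences. Six3, which represses Wnt signals in the anterior neural plate, stood at 170, 177, 181 and 188 CPM under the WT label and at 167, 179, 186 and 184 CPM under the C3 KO label. The ranges lay on top of each other. Its log2 fold change was −0.00088 ± 0.05 (SE), with a 95% interval of −0.10 to 0.10 (edgeR adjusted p = 0.992). Six6, a repressor of cell cycle inhibitors in retinal progenitors, stood at 113, 116, 117 and 136 CPM under the WT label and at 118, 119, 128 and 111 CPM under the C3 KO label. Its log2 fold change was −0.02 ± 0.06 (SE), with a 95% interval of −0.14 to 0.10 (edgeR adjusted p = 0.883). The sign of both values changed under some settings, so neither has a direction. A difference of the size seen for Rax (−0.40) lies outside both intervals.

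Because scaling cancels in a ratio of reads within a library, the group was also set against Pax6. There were 2.29 to 2.64 Pax6 reads per Rax read in the libraries labelled WT and 3.48 to 4.20 in those labelled C3 KO. Per Six3 read there were 2.64 to 2.86 and 3.15 to 3.61 Pax6 reads, and per Sfrp2 read 52.7 to 74.3 and 107 to 162. For each of the other 8 factors the ratio did not overlap between labels. Pax6 levels alone did not overlap either. Six3 and Six6 had log2 fold changes near 0, so their ratios mostly restate the Pax6 difference. All 8 ratios share Pax6 and are not independent of its difference. The share of all genes whose ratio to Pax6 did not overlap was not computed. A ratio shows unequal change of 2 genes, and not which of them changed.

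Levels of different genes were compared only per transcript length, on the authors' RPKM (reads scaled by transcript length and library size). The lengths used were those of the authors, and the order rests on them. In the GRCm38 annotation Pax6 has 11694 exon bases and Rax 5846. Scaled by those, Pax6 at 495 CPM would stand above Rax at 199.98 CPM under the WT label. By the authors' RPKM Rax was highest under the WT label at 120 ± 11.3 RPKM (SD, n = 4), with Six6 next at 30.6 ± 2.76 RPKM. Pax6 (25.1 ± 1.75), Sox2 (22.1 ± 3.39), Lhx2 (21.5 ± 3.14) and Six3 (20.5 ± 0.925) followed, and neighbours among these 4 did not differ beyond their spread. Nr2e1 (9.70 ± 1.11) and Fgf15 (9.25 ± 1.48) were alike within their spread, and Sfrp2 was lowest at 3.76 ± 0.583 RPKM. Under the C3 KO label Rax was again highest at 90.4 ± 4.76 RPKM. Pax6 and Six6 then stood level at 30.0 ± 1.00 and 30.0 ± 1.72 RPKM, and Six3 (20.4 ± 0.919) came before Sox2 (17.3 ± 2.66) and Lhx2 (16.4 ± 0.901).

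**Figure D2:**
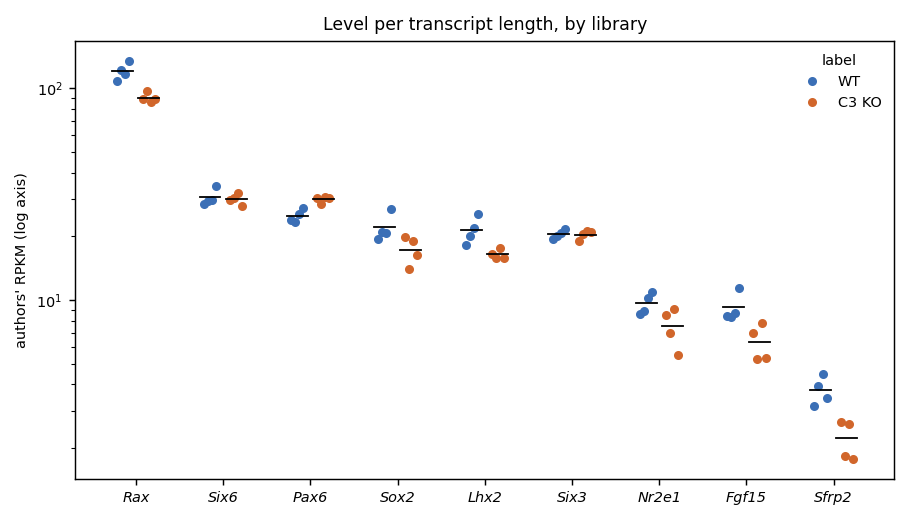
Level per transcript length of each progenitor factor, as the authors' RPKM on a log axis, ordered by the mean under the WT label. Points are libraries and short lines are means of 4. By the authors' transcript lengths Rax is highest at 120 RPKM under the WT label and 90.4 RPKM under the C3 KO label. Sfrp2 is lowest at 3.76 and 2.22 RPKM.

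Within labels the factors tended to move together across libraries. The library labelled WT replicate 4 was the highest of its label for 8 of the 9, Sfrp2 being the exception, and C3 KO replicate 4 was the lowest of its label for 3, namely Six6, Nr2e1 and Sfrp2. After each gene was centred on its label mean, Pearson r over the 8 libraries was positive for 34 of 36 pairs. It was highest for Sox2 with Fgf15 (0.90), Lhx2 with Six6 (0.88) and Nr2e1 with Fgf15 (0.85), and lowest for Rax with Sfrp2 (−0.21). These values share library and depth and are given as description. The share of positive pairs among all genes was not computed, so the pattern cannot be called particular to the factors. By mean log2 level relative to the WT mean, WT replicate 4 was also highest of its label in other lists. These included other progenitor genes (0.15), cofactors (0.11) and cell cycle genes (0.12). It was lowest for photoreceptor markers (−0.12) and for pigment epithelium and melanocyte genes (−0.33).

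Outside the group, the 2 genes most like each factor were sought the same way among 10985 genes (10986 for Sfrp2) with a mean of at least 10 CPM. Sox2 was closest to Cops7a and Neurog2 (r = 0.97 for both), Pax6 to Zfp810 (0.99) and Tmed10 (0.98), and Lhx2 to Gas1 (0.99) and Dab1 (0.98). Rax was closest to Gm12183 (0.99) and Tgfb2 (0.98), Six6 to Asxl1 and Khdrbs3 (0.99 for both), and Six3 to Rab33b and Dhx40 (0.98 for both). Nr2e1 was closest to Mybl1 and Zfp266 (0.99 for both), Fgf15 to Tmem167b (0.97) and Lbr (0.96), and Sfrp2 to Caprin2 (0.97) and Nasp (0.96). Each r is the highest of that many values over 8 libraries, and is given as description.

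Genes on the other strand or around the factors were described by level and by shared exon bases, which is no test of shared reads. In the GRCm38 annotation Sox2 lies inside Sox2ot on the same strand with no shared exon base, while Six3os1 covers 1.95% and Gm28528 3.08% of Six3 exon bases and 4930447C04Rik covers 4.79% of those of Six6. Six3os1 had 188 CPM with the WT label and 184 CPM with the C3 KO label (log2 fold change −0.03 ± 0.06 SE, edgeR adjusted p = 0.805). Sox2ot, a long non-coding RNA, was at 44.8 ± 4.57 and 51.7 ± 1.80 CPM (SD, n = 4), a log2 difference of 0.21 ± 0.07 (SE, edgeR adjusted p = 0.0455), the sign opposite to that of Sox2. Among the 8 fits without 1 library that call held only without WT replicate 3 or WT replicate 4 (edgeR adjusted p up to 0.185) and was lost under 8 other settings. Pax6os1, at 2.90 and 3.26 CPM, did not pass (edgeR adjusted p = 0.656). Antisense genes also cover 27.4% of Rax exon bases (Raxos1), 24.9% of Fgf15 exon bases (Gm26793) and 16.1% of Sfrp2 exon bases (Gm26771). The libraries were directional, but the sources used here do not give the strand setting of the counting. Reads of such partners therefore cannot be told apart from those of Rax, Fgf15 and Sfrp2.

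With the C3 KO label 7 of 24 other progenitor and eye-field genes fell and 1 rose, with a median log2 fold change of −0.11. Sox8 and Sox9, SOX-family factors of late progenitors and Mueller glia, fell from 43.8 ± 6.87 to 26.2 ± 4.52 CPM and from 20.6 ± 1.67 to 15.1 ± 2.39 CPM (n = 4, SD; adjusted p = 0.00303 and 0.0065 by edgeR). Nfib and Nfix, nuclear factor I genes that mark late progenitors, fell with log2 fold changes of −0.46 ± 0.09 and −0.27 ± 0.07 (SE, edgeR adjusted p = 0.00267 and 0.0108). Sox8 lost its call in the fit with a replicate block (edgeR adjusted p = 0.0518), and each of these 4 lost it with the Y-linked covariate and with 1 surrogate variable. The gene that rose was Ccnd1, the cyclin D of retinal progenitors and named after its values were seen, from 770 ± 93.1 to 954 ± 85.4 CPM (edgeR adjusted p = 0.022). It did not pass when WT replicate 3, or C3 KO replicate 1 or 3, was left out (edgeR adjusted p = 0.0562, 0.0657 and 0.0654), nor by limma on log2(RPKM + 1) or log2(RPKM + 0.1) (adjusted p = 0.0601 and 0.0582), nor with the Y-linked covariate (0.146) or 1 surrogate variable (0.426). The count of genes that fell was 4 on either log2 RPKM scale and without C3 KO replicate 4, 1 with the Y-linked covariate and 0 with 1 surrogate variable.

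**Figure D3:**
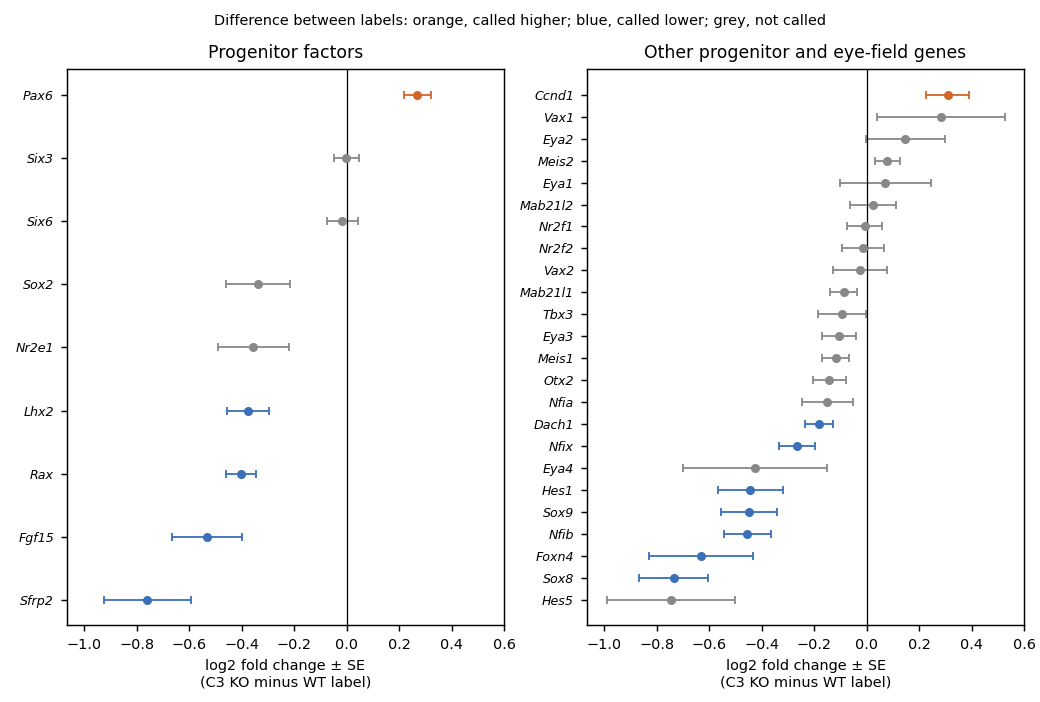
Log2 fold change with its SE, C3 KO label minus WT label, for the 9 progenitor factors (left) and 24 other progenitor and eye-field genes (right). Orange marks genes called higher, blue genes called lower and grey genes not called by edgeR. Sfrp2 has the lowest value of the 9 at −0.76, and Pax6 is the only one of them called higher, at 0.27.

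Signals that act on or through these factors were compared next. Of 12 hedgehog pathway genes 3 fell and none rose, with a median of −0.30: Gas1, a co-receptor, from 49.8 ± 10.3 to 32.2 ± 1.69 CPM, Sufu, an inhibitor, from 54.8 ± 1.89 to 42.3 ± 1.57 CPM, and Smo, the signal transducer, from 57.9 ± 6.54 to 46.8 ± 6.46 CPM (SD over 4 libraries, edgeR adjusted p = 0.00392, 0.000201 and 0.0449). Among the 8 fits without 1 library Smo kept its call only without WT replicate 1 or C3 KO replicate 3 (edgeR adjusted p up to 0.115). With the Y-linked covariate Sufu (edgeR adjusted p = 0.0541) and Smo (0.0776) lost the call. With 1 surrogate variable Gas1 (0.166) and Smo (0.517) lost it. Among 17 tested FGF receptors, ligands and feedback genes 1 rose and 1 fell, with a median of 0.02. Spry2, a feedback inhibitor induced by FGF signals, was 1.32-fold lower, at 43.2 CPM with the WT label and 32.7 CPM with the C3 KO label (edgeR adjusted p = 0.000317) and was called under all 20 other settings. The receptor Fgfr3 rose from 3.51 ± 1.12 to 5.80 ± 0.695 CPM (SD over 4 libraries, edgeR adjusted p = 0.0155, and 0.0549 without WT replicate 4). Fgfr3 also lost its call by limma on both log2 RPKM scales, with the Y-linked covariate (edgeR adjusted p = 0.174) and with 1 surrogate variable (0.0737).

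Of 21 tested Wnt ligands, receptors and targets, 4 fell and none rose, with a median of −0.05. They were Fzd5, the Frizzled receptor of retinal progenitors (log2 fold change −0.47 ± 0.07 SE, edgeR adjusted p = 0.000157), Fzd2 (−0.52), the secreted Dkk3 (−0.34) and the ligand Wnt5b (−0.55). Wnt5b kept its call only without WT replicate 1, WT replicate 3 or C3 KO replicate 2 (edgeR adjusted p up to 0.123). Fzd2 and Wnt5b lost the call with the Y-linked covariate and with 1 surrogate variable. Dkk3 lost it with 1 surrogate variable only (edgeR adjusted p = 0.299), and Fzd5 kept it with either covariate. Sfrp1, the paralog of Sfrp2, rose from 15.6 ± 1.56 to 21.8 ± 2.43 CPM (SD over 4 libraries, edgeR adjusted p = 0.00225), opposite to Sfrp2, and lost the call with the Y-linked covariate. Among 14 tested paralogs of the factors 2 rose and 2 fell, with a median of −0.26. The others were Lhx9, which rose (log2 fold change 0.36), and the bipolar and photoreceptor precursor genes Lhx3 (−0.74) and Lhx4 (−0.42), which fell. Lhx9 kept its call in all 8 fits without 1 library but lost it by limma on both log2 RPKM scales. Lhx9, Lhx3 and Lhx4 each lost the call with the Y-linked covariate and with 1 surrogate variable. Lhx3 lost its call without WT replicate 1 or 2 or C3 KO replicate 1 or 3, and Lhx4 kept its call only without WT replicate 1, WT replicate 3 or C3 KO replicate 2 (edgeR adjusted p up to 0.0655 and 0.10044).

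Of 19 tested cofactors and corepressors 2 rose and none fell, with a median of −0.05, where 14.3% of all tested genes were called. Tle2, a Groucho corepressor of the family that Six3 recruits, rose from 31.4 ± 2.25 to 41.9 ± 4.12 CPM (SD over 4 libraries, edgeR adjusted p = 0.000871). Lmo4, a LIM-only protein that competes for the LIM cofactor Ldb1, rose from 73.8 ± 7.62 to 91.7 ± 7.09 CPM (SD over 4 libraries, edgeR adjusted p = 0.00526). With the Y-linked covariate Tle2 (edgeR adjusted p = 0.0934) and Lmo4 (0.09995) lost the call. Lmo4 also lost it with 1 surrogate variable (0.380). Ldb1, which Lhx2 needs, stood at 181 and 168 CPM and did not pass (edgeR adjusted p = 0.123).

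All 18 genes of the cell cycle list had negative log2 fold changes, with a median of −0.29, against 7776 of 15850 tested genes. The list does not hold Ccnd1, which was placed with the progenitor genes and rose (0.31). Among the 18 genes 2 were called lower, Plk1 (−0.39) and Mcm4 (−0.31). That count rested on single libraries. Plk1 lost its call without WT replicate 4 or C3 KO replicate 1 or 4, and Mcm4 without WT replicate 3 or 4 or C3 KO replicate 4. Plk1 and Mcm4 also lost it with the Y-linked covariate and with 1 surrogate variable. The count was 10 without WT replicate 1, 5 without C3 KO replicate 1 or 3, 1 without WT replicate 3, and 0 without WT replicate 4 or C3 KO replicate 4. The mean log2 level of the list, relative to the WT mean, was −0.21, −0.02, 0.10 and 0.12 for replicates 1 to 4 of the WT label and −0.12, −0.36, −0.14 and −0.52 for those of the C3 KO label. The same measure for the 9 factors was −0.14, −0.05, 0.02 and 0.16, and −0.20, −0.39, −0.14 and −0.40. In both lists WT replicate 4 was highest and C3 KO replicates 2 and 4 were lowest. The part of the cell cycle genes in the differences of the factors was not tested.

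Cell types that also use these factors did not move as one. Of 14 ganglion cell markers 10 rose and none fell, with a median of 0.28, among them Gap43 (0.35), Stmn2 (0.35), Isl1 (0.35) and Pou4f2 (0.43). Of 11 tested amacrine markers 2 rose, Calb2 from 294 ± 29.4 to 364 ± 22.6 CPM and Gad1 from 124 ± 15.2 to 156 ± 9.59 CPM (SD over 4 libraries, edgeR adjusted p = 0.00239 and 0.00379), with a median of 0.03. Of 16 photoreceptor markers 6 fell and none rose, with a median of −0.18, among them the transcription factor genes Neurod1 (−0.38), Prdm1 (−0.36) and Crx (−0.22) and the rod transducin gene Gnat1 (−0.40). Crx lost its call when C3 KO replicate 3 or 4 was left out (edgeR adjusted p = 0.0654 and 0.0657). Of 8 horizontal cell markers 1 fell, Sept4 (−0.22), and none rose, with a median of −0.17. Of 10 bipolar cell markers 1 rose, Trpm1 (0.75), and 2 fell, among them Bhlhe23 (−1.11), with a median of −0.14. Of 12 Mueller glia markers 3 fell and 1 rose, with a median of −0.16. Kcnj10 (−0.59), Crym (−0.46) and Car2 (−0.17) fell, and Rgr, which pigment epithelium also makes, rose (1.16). Crym kept its call only without WT replicate 1 or WT replicate 4 and Car2 only without WT replicate 1 (edgeR adjusted p up to 0.144 and 0.146). Of the markers named here only Prdm1 and Rgr kept the call with either covariate. Gap43, Stmn2, Isl1, Calb2 and Gad1 lost it with 1 surrogate variable only, and Neurod1 with the Y-linked covariate only. The other named markers lost it with each covariate.

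Markers of tissue beside the neural retina differed in both directions. Ttr rose from 28.4 ± 5.20 to 78.5 ± 4.07 CPM (SD, n = 4), and 11 of the 15 tested pigment epithelium and melanocyte genes were called higher, with a median of 1.12. Of 9 tested ciliary margin genes 4 rose and 1 fell, with a median of 0.80, and of 5 tested lens and cornea genes 1 fell, with a median of 0.10. All 5 tested red blood cell genes fell, with a median of −1.11. Of 10 microglia genes 3 rose, with a median of 0.28, and of 10 tested astrocyte and optic nerve genes 3 rose and 1 fell, with a median of 0.36. Their part in the differences of Pax6, Rax, Lhx2, Fgf15 and Sfrp2 was not tested.

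**Figure D4:**
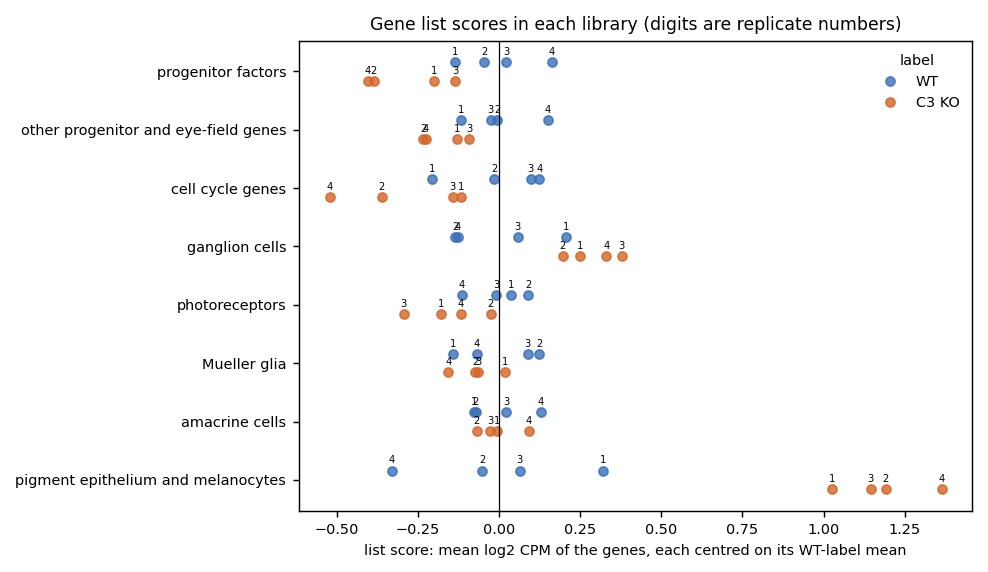
Score of each gene list in each library, the mean log2 CPM of its genes after each was centred on its WT-label mean. Points are libraries with their replicate number, blue for the WT label and orange for the C3 KO label. The pigment epithelium score lies between 1.03 and 1.36 under the C3 KO label and between −0.33 and 0.32 under the WT label, while the scores of the progenitor factors lie between −0.40 and −0.14 and between −0.14 and 0.16.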

How the data were processed

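The deposited table of counts holds whole-number reads per gene for 8 libraries, made by the authors with STAR and HTSeq per the submitters' processing notes, which name the mouse builds mm9 and NCBIM37 and no versions. The authors also deposited RPKM on a log2 scale. These values follow the count plus an offset of 2 reads at mean depth, with a largest deviation of 0.0133. Directional poly(A) libraries were made per the labels' protocols.

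The main test was edgeR 4.0.16 under R 4.3.3 (filterByExpr, TMM scaling, quasi-likelihood test with robust dispersion, 4 against 4 libraries, no covariate). The procedure was tested on simulated data. Adjusted p-values are over all tested genes. Standard errors are the size of the log2 difference over the root of F. DESeq2 1.42.0, limma 3.58.1 (voom, and on log2(RPKM + 1) or log2(RPKM + 0.1)), sva 3.50.0, other scalings and filters, the replicate number as a block and leaving out each library were alternatives. The members and gene lists were chosen with earlier results of these data known. Examples were named from at most 4 called genes of each other list, those with the smallest p, and not all of these are named. Ccnd1 and Raxos1 fall outside that rule. The GRCm38 annotation, another build than the authors', served only for overlaps and RefSeq promoters. A gene was left out of the lists and is not reported here.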

Additional observations from a re-analysis of the deposited data

Results flagged for a closer look

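Of 18 groups of 4 libraries (9 factors under 2 labels), 3 had a library set apart from the other 3, where chance flags about 1 group in 20. Pax6 stood at 562 CPM in the library labelled C3 KO replicate 2, against 603 to 611 CPM in the others of that label. Six6 stood at 136 CPM in WT replicate 4, against 113 to 117 CPM in the others labelled WT. Fgf15 stood at 20.5 CPM in WT replicate 4, against 15.02 to 15.6 CPM in the others. Without WT replicate 4 the log2 fold change of Fgf15 was −0.42 (edgeR adjusted p = 0.0373). Without C3 KO replicate 2 that of Pax6 was 0.29 (edgeR adjusted p = 0.000912).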

How the results depend on the processing

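The counts of factors called higher (1) and lower (4) held under RLE and upper-quartile scaling, both other count filters and both RPKM analyses, while DESeq2, limma-voom and non-robust dispersion called 6 lower. With the Y-linked covariate 0 factors were called higher and 3 lower, and with 1 surrogate variable 1 higher and 1 lower (Rax). These covariates correlated with the label at 0.732 and 0.678. Without any 1 library 1 factor was called higher and 4 or 5 lower. The genes called between labels numbered 2269, against 1509 and 1502 on log2(RPKM + 1) and log2(RPKM + 0.1), 530 with the Y-linked covariate, 453 with 1 surrogate variable and 1305 to 2543 without 1 library, the lowest without C3 KO replicate 4. The Six3 log2 fold change changed sign with upper-quartile scaling (0.0028) and 1 surrogate variable (0.0041) and ran from −0.026 to 0.029 without 1 library. The Six6 log2 fold change was 0.049 with 1 surrogate variable and ran from −0.058 to 0.039 without 1 library. The cause was not tested. With a replicate block 2400 genes were called, and 1 factor was higher and 4 lower. Libraries with the same number did not deviate together (r of −0.06, 0.09, 0.0038 and −0.06), and only number 2 correlated best with its own number. Of the 64 called genes, at most 4 a list, from which examples were named, 46 kept their call in every fit without 1 library, 39 lost it with the Y-linked covariate and 48 with 1 surrogate variable. Depth limits Sfrp2 most, at 66 to 179 reads per library.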
